A study of Caenorhabditis elegans with 79 samples.

Results

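The F-box gene families fbxa, fbxb and fbxc of Caenorhabditis elegans were examined in animals with an intact or an impaired nuclear RNA interference pathway. F-box proteins are the substrate-binding parts of SCF ubiquitin ligases, in which the F-box binds a Skp1-related protein (SKR in C. elegans), cullin and a RING protein complete the complex, and the rest of the F-box protein holds the target that will be ubiquitinated. In nematodes these 3 families are unusually large, arose largely by local duplication, and most of their members have no assigned substrate. Nuclear RNA interference uses 22G small RNAs, antisense copies made from target transcripts by RNA-dependent RNA polymerases, which the germline Argonaute HRDE-1 carries into the nucleus, where target genes receive repressive chromatin across generations. MORC-1 belongs to the Microrchidia family of ATPases and has been placed downstream of this pathway.

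Members were every gene whose name starts with fbxa-, fbxb- or fbxc- and that had a mean of at least 0.5 FPKM (fragments per kilobase of transcript, scaled to the library's mapped total) over the mRNA libraries or was listed in the small RNA table. This gave 212 genes of 22374 features in the 2 tables, namely 131 fbxa, 52 fbxb and 29 fbxc genes. The mRNA table listed 389 genes of these names, of which 179 reached the threshold, 210 did not and 32 were at 0 in every library. The nearest below it were fbxa-199 at 0.4885 and fbxb-3 at 0.4908 FPKM, and the nearest above it fbxb-44 at 0.5012 and fbxb-71 at 0.5019 FPKM. The small RNA table listed 96 members, of which 63 also passed in the mRNA table and 33 did not, leaving 116 genes with mRNA alone.

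The strains were wild type N2 (WT), morc-1(tm6048) and hrde-1(tm1200), kept at 20 °C and moved to 25 °C with the parental generation. RNA came from whole gravid hermaphrodites, fed OP50 bacteria, of generation 1 at 25 °C (early) or generation 4 (late), with generation 5 for replicate 3 of the WT late and of the morc-1 late small RNA libraries. There were 12 mRNA libraries, 2 per strain and stage, and 16 small RNA libraries, 3 for WT and morc-1 and 2 for hrde-1 at each stage, out of 79 samples in the series. The labels do not say whether libraries came from separate cultures, and the p-values therefore cover the spread among the libraries alone, which may be technical. Each mutant is a single deletion allele, and whole animals mix germline with somatic tissue.

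The labels were first checked against the mutated genes. Levels of morc-1 were 54.2 and 54.9 FPKM in WT early against 14.1 and 13.7 FPKM in morc-1 early, and late libraries had 36.2 and 24.3 FPKM in WT against 12 and 9.77 FPKM in morc-1. Levels of hrde-1 were 233.6 and 197.6 FPKM in WT early against 151 and 134 FPKM in hrde-1 early, and 102 and 97.2 FPKM in WT late against 81.1 and 68.5 FPKM in hrde-1 late, so both deletion alleles still gave reads. In the morc-1 mutant hrde-1 was at 125 and 161 FPKM early and 174 and 175 FPKM late. The early hrde-1 level therefore did not set the hrde-1 libraries apart from the morc-1 libraries. The small RNA libraries held 54599 to 2274591 reads, the fewest in morc-1 early replicate 1, where 1 read stood for 21.66 normalized reads and 19 of the 96 F-box members had no read. Summed levels of 39 sperm markers were 77.0 to 841 FPKM in the WT late libraries and 1345 to 5409 FPKM in hrde-1 late, although the major sperm protein genes msp-37, msp-52 and msp-58 were at 0 in both. Summed levels of 7 intestine markers were 2991 to 3302 FPKM in WT early and 8836 to 10609 FPKM in WT late, 5837 to 6024 FPKM in morc-1 late and 3348 to 9738 FPKM in hrde-1 late. Summed levels of 10 oocyte and germline markers were 2393 to 3507 FPKM in WT late, 4531 to 4951 FPKM in morc-1 late and 3773 to 3827 FPKM in hrde-1 late. The part of these differences in the results below was not tested, and in whole animals fewer cells of a type and less RNA per cell cannot be told apart.

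The 212 members lie on all 6 chromosomes, in unequal numbers. All matched the RefSeq gene table of assembly WBcel235, which places 70 on chromosome II, 60 on V, 43 on III, 16 on I, 14 on X and 9 on IV. The fbxa genes were concentrated on V (55) and III (38), the fbxb genes on II (32) and the fbxc genes on II (23). Of 176 members placed among protein-coding genes, 97 had another protein-coding gene of these families as the nearest protein-coding gene on either side. Pseudogenes, such as fbxa-149, were left out of this order, both as members and as neighbours. Positions beside other genes given below refer to this order. RefSeq calls 36 members pseudogenes, 17% of all, and their share was 24% among the 96 genes with small RNA, 33.3% among the 33 with small RNA alone and 11.2% among the 116 with mRNA alone. The pseudogenes fbxa-204 and fbxa-205 had identical small RNA values in every library and cannot be told apart. For other similar copies the counting of shared reads is not given in the sources used here, so values of close paralogs are uncertain.

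Most F-box mRNAs were rare. The median of the members' mean levels over all 12 libraries was 1.75 FPKM, with 57 members below 1 FPKM, 96 from 1 to 10 and 26 at 10 or more, and the median was 2.32 FPKM for fbxa, 0.802 for fbxb and 2.14 for fbxc. The highest mean levels in WT were those of fbxa-93 (254.9 FPKM, 4 libraries from 168 to 419) and fbxa-215 (151 FPKM, from 76.9 to 263), which overlapped. Next came fbxa-217, with 197.1 and 0 FPKM in the early and 0 and 224.8 FPKM in the late WT libraries, then fbxa-210 at 49.5 FPKM (36.6 to 65.9) and fbxc-44 at 49.3 FPKM (35.6 to 65.6), which did not differ beyond their spread. WT mRNA levels had a median of 2.15 FPKM for the 63 members with a small RNA feature and 1.48 FPKM for the 116 without.

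Small RNA was also uneven across members. The highest mean values over the 6 WT libraries, in normalized reads per gene, which are not scaled by gene length, were 3478 for fbxb-14 (2907 to 4151), 3201 for fbxa-218 (2327 to 3829), 2943 for fbxa-149 (2233 to 3493) and 2574 for fbxa-192 (2140 to 3358). The fifth, fbxb-37, had a mean of 2293 and ranged from 264 to 5856 among WT libraries alone. The median member had 85.2 normalized reads over all 16 libraries. All 96 members together took 2.50 to 2.86% of the small RNA reads of the WT libraries.

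The first question was whether F-box mRNAs were higher without HRDE-1. In hrde-1 early 6 of 179 members were higher than in WT early and none lower, by limma with an adjusted p under 0.05 over 13850 genes. They were fbxb-14, fbxb-97, fbxb-56, fbxc-8, fbxa-107 and fbxa-224, of which none has a function known from these sources beyond its F-box. Their share of the members was 3.35%, against 0.787% of all genes higher and 0.0289% lower. Of these 6, fbxb-14, fbxc-8 and fbxa-224 averaged under 0.5 FPKM outside hrde-1 and were tested only because they are high in hrde-1, so neither share supports a difference of the families. In hrde-1 late 13 members were higher and none lower, a share of 7.26% against 8.13% of all genes higher and 1.65% lower. Here 7 of the 13 entered through the hrde-1 libraries, namely the same 3 and fbxa-33, fbxa-194, fbxa-196 and fbxa-202. Among genes that averaged at least 0.5 FPKM without the hrde-1 libraries, a restriction chosen after seeing the data, 3 of 165 members (1.82%) were higher early and 6 (3.64%) late, beside 0.574% and 6.99% of 13423 genes. With only the compared groups in 1 fit, 1 member was higher early (0.209% of all genes higher, 0% lower), and late 3 were higher and 1 lower (0.513% and 0.108%), of which 2 were among the 13. All 6 genes of the early list were among the 13 of the late list, 100% of the first and 46.2% of the second. As 3 of the 6 were tested only because they are high in hrde-1, this overlap is partly built in. The overlap over all genes was not counted.

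The gene with the clearest rise was fbxb-14. Its mRNA was at 0.467 and 0.233 FPKM in WT early and 79.8 and 62.3 FPKM in hrde-1 early, then at 0.323 and 0.187 FPKM in WT late and 89.2 and 46.9 FPKM in hrde-1 late. In the morc-1 mutant it was at 0.483 and 0.604 FPKM early and 0.863 and 0.337 FPKM late. Every hrde-1 library was thus far above every other library, while morc-1 and WT lay close together. As given above, fbxb-14 was tested only because it is high in hrde-1, so the p-values and passes below follow that selection and are descriptive. The rise in hrde-1 was 5.73 early (SE 0.36, limma adjusted p = 2.5e-05) and 5.71 late (SE 0.36, limma adjusted p = 3.1e-05) on the log2(FPKM + 1) scale, which understates changes of low genes. It passed in every fit with 1 library left out.

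The gene fbxb-97, which lies beside fbxb-96 on chromosome II, was higher in both mutants. It had 3.75 and 3.12 FPKM in WT early, 14.9 and 10.7 in morc-1 early and 47.8 and 34.2 in hrde-1 early. Late levels were 3.67 and 2.92 FPKM in WT, 18.9 and 23.4 in morc-1 and 39.8 and 30.8 in hrde-1. At each stage the 3 strains did not overlap, with WT lowest and hrde-1 highest. The change in hrde-1 was 3.23 early and 3.07 late on the log2 scale (SE 0.31 each, limma adjusted p = 0.00043 and 0.00058), and in morc-1 late it was 2.36 (SE 0.31, limma adjusted p = 0.016). In morc-1 early the difference of 1.62 did not pass (limma adjusted p = 0.20), and the direct comparison of hrde-1 late with morc-1 late, 0.71, did not pass either (limma adjusted p = 0.30). Of all genes, 15.4% in morc-1 early and 29.8% in morc-1 late lay above WT without overlap, and 17.6% and 24.8% in hrde-1.

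The genes fbxc-8, fbxb-56 and fbxa-107 completed the larger early rises. Levels of fbxc-8 were 0.0816 and 0 FPKM in WT early, 4.01 and 3.63 in hrde-1 early, 0.0378 and 0 in WT late and 1.76 and 0.985 in hrde-1 late, with changes of 2.21 (limma adjusted p = 0.00095) and 1.2 (limma adjusted p = 0.011). Levels of fbxb-56 were 0.275 and 0.806 FPKM in WT early, 3.92 and 7.71 in hrde-1 early, 0.122 and 0.102 in WT late and 2.32 and 1.48 in hrde-1 late, with changes of 2.11 and 1.37 (limma adjusted p = 0.021 and 0.035). Levels of fbxa-107 were 12.2 and 15.9 FPKM in WT early, 57.3 and 61.5 in hrde-1 early, 10.2 and 8.83 in WT late and 42.0 and 25.8 in hrde-1 late, with changes of 2.01 and 1.69 (limma adjusted p = 0.018 and 0.010). In none of these comparisons did the groups overlap. Of all genes, 17.6% early and 24.8% late also lay above WT without overlap in hrde-1. The neighbour of fbxa-107 on chromosome V, fbxa-210, had 65.9 and 57.8 FPKM in WT early and 88.0 and 64.7 in hrde-1 early, which did not pass. For fbxa-224, at 0.180 and 0.107 FPKM in WT early and 2.22 and 1.60 FPKM in hrde-1 early, the change was 1.34 (limma adjusted p = 0.026). Both fbxc-8 and fbxa-224 were tested only because they are high in hrde-1, so their p-values follow that selection and are descriptive. The late call of fbxb-56 held in 0 of 4 fits with 1 library left out and that of fbxa-107 in 3 of 4. The early calls of fbxb-56, fbxa-107 and fbxa-224 were each lost in some or all fits with 1 library left out, which made 3 calls without either WT early library or without hrde-1 early replicate 2.

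The other late rises were smaller or rested on low levels. They were fbxa-224 at 2.13 (SE 0.23), fbxa-11 at 2.04 (SE 0.36), fbxa-120 at 1.63, fbxa-202 at 1.42 and fbxb-7 at 1.29 on the log2 scale. Levels of fbxb-7 were 3.38 and 3.91 FPKM in WT late against 13.3 and 8.01 in hrde-1 late, and those of fbxa-11 were 1.15 and 0.836 FPKM against 10.7 and 4.68. With 1 library left out the call of fbxa-120 held in 2 of 4 fits, that of fbxb-7 in 1 of 4 and that of fbxa-196 in 0 of 4. The gene fbxa-196 was nearest the threshold, with 0 and 0.314 FPKM in WT late, 1.30 and 1.47 in hrde-1 late and a limma adjusted p of 0.050, just under the limit. The gene fbxa-194 was at 0 in WT late replicates 1 and 2 and had 1.72 and 1.04 FPKM in hrde-1 late (limma adjusted p = 0.0085). As given above, fbxa-194, fbxa-196, fbxa-202 and fbxa-224 were tested only because they are high in hrde-1, so their calls follow that selection and are descriptive. With quantile normalization, which moves the median change of all genes from 0.14 to -0.07, the hrde-1 late members split into 12 higher and 7 lower rather than 13 and 0, against 5.53% of all genes higher and 4.57% lower.

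**Figure D1:**
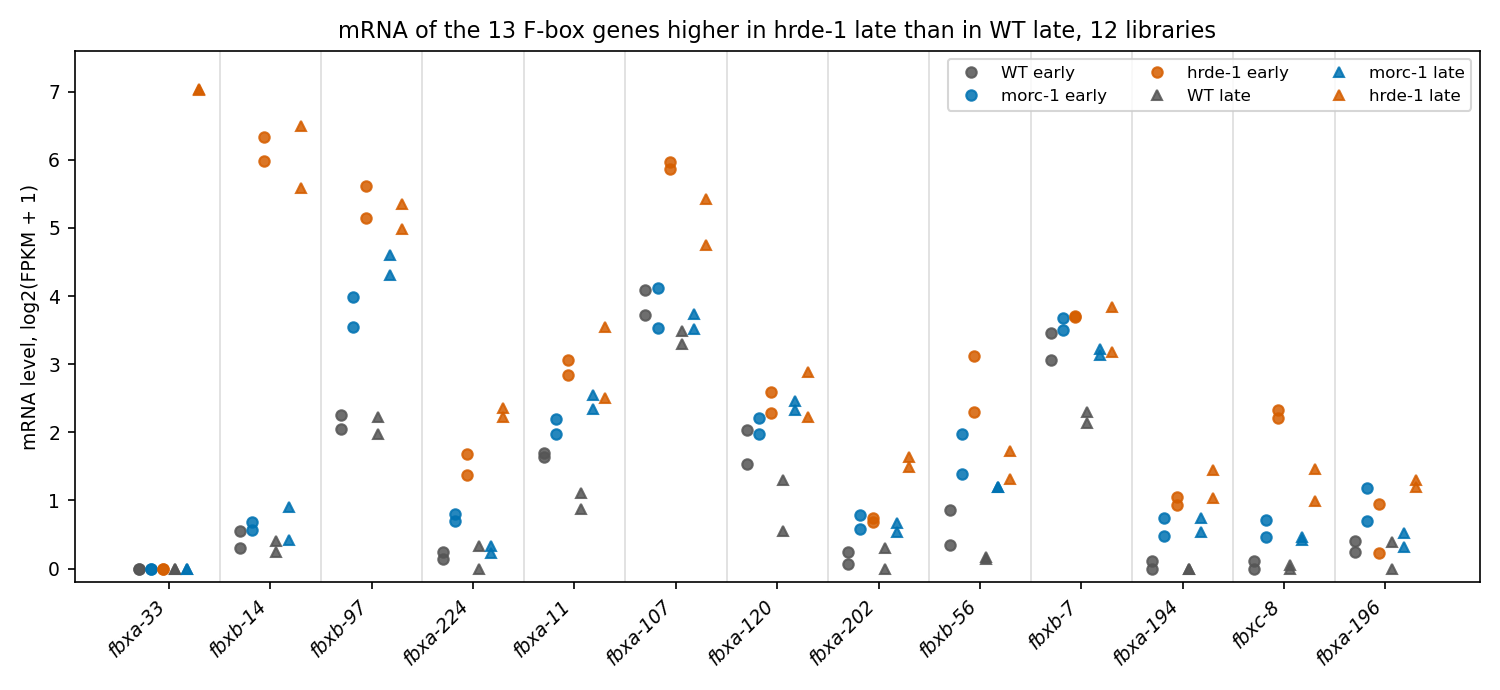
mRNA levels of the 13 F-box genes higher in hrde-1 late than in WT late, as log2(FPKM + 1), with 1 point per library for 12 libraries, circles for early, triangles for late and colours for strains. The hrde-1 points of fbxb-14 stand near the top of the axis with WT and morc-1 near 0, and fbxb-97 is stepped from WT through morc-1 to hrde-1.

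The largest value in that plot, fbxa-33, needs a separate reading. It was listed at 0 in 10 libraries and had 130.7 and 128.9 FPKM in both hrde-1 late libraries, with nothing in between, and RefSeq calls it a pseudogene. An exact 0 beside a high value was seen in 7 members in all, fbxa-33, fbxa-87, fbxa-117, fbxa-198, fbxa-212, fbxa-217 and fbxc-46. Of 8811 features with a library of at least 10 FPKM, 316 had another library at 0, among them the abundant yolk protein genes vit-2, vit-5 and vit-6, so a 0 in this table can be a failed estimate. Without these 7 members the hrde-1 late list had 12 genes. The call of fbxa-33 in hrde-1 late against hrde-1 early, where it was the only member to pass (higher in 0.599% and lower in 0.108% of all genes), then left none. With quantile normalization 1 member was higher and 3 were lower there, against 1.65% of all genes higher and 0.491% lower.

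In the morc-1 mutant few F-box mRNAs passed this test. No member passed in morc-1 early, where 0.0722% of all genes were higher and 0% lower by limma, although 7 members were higher and 3 lower at an unadjusted p under 0.05 (3.91% and 1.68%, beside 2.74% and 1.44% of all genes). In morc-1 late fbxb-97 alone was higher, against 0.267% of all genes higher and 0.00722% lower, and it lost that call in each of the 4 fits with a library left out and when the fit held WT late and morc-1 late alone. At an unadjusted p under 0.05, 20 members were higher and 1 lower in morc-1 late (11.2% and 0.559%), beside 7.94% and 2.66% of all genes. Whether or not they passed, 34 of 35 fbxb genes and 22 of 25 fbxc genes had changes above 0. Their medians were 0.47 and 0.45 on the log2 scale, while fbxa had 56 of 119 above 0 and a median of -0.02. The median of all genes was 0.15, itself above 0. With quantile normalization these medians were 0.30, 0.26, -0.17 and -0.01, so the order of the families was kept. Late against early, the fbxb and fbxc medians were -0.38 and -0.49 in WT and 0.26 and -0.09 in morc-1. For all genes they were -0.31 in WT and -0.16 in morc-1. Mean levels of 23 of the 35 fbxb genes were under 1 FPKM. These are descriptions of families with no test, and the germline and intestine marker sums given above also differed between these groups.

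A direct comparison of hrde-1 late with morc-1 late called 5 members higher in hrde-1 and none lower, against 3.95% of all genes higher and 0.765% lower. They were fbxb-14 (5.38, SE 0.36), fbxa-224 (2.01), fbxa-107 (1.46), fbxa-202 (0.97) and fbxa-33, which was at 0 in morc-1 late. All but fbxa-107 averaged under 0.5 FPKM outside hrde-1. Without hrde-1 late replicate 2 there were 3 calls, and 2 when the fit held these groups alone (0.0505% of all genes higher, 0.0217% lower). The calls of fbxa-107 and fbxa-202 held in 0 of 4 fits with a library left out. With quantile normalization 4 members were higher and 4 lower, against 3.24% of all genes higher and 1.94% lower.

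Across generations no WT member changed in mRNA by limma, where 2.05% of all genes were higher and 1.07% lower in late than early, with 6 members higher and 27 lower at an unadjusted p under 0.05 (3.35% and 15.1%, beside 8.05% and 23.1% of all genes). The members' median was -0.26 against -0.31 for all genes, and quantile normalization called 3 members higher and 2 lower (5.57% of all genes higher, 2.89% lower). Without WT late replicate 2 there were 5 calls. In morc-1 no member passed by limma (0.368% of all genes higher, 0.0794% lower), with 6 higher and 10 lower at an unadjusted p under 0.05 (3.35% and 5.59%, beside 5.51% and 6.89% of all genes), and 1 call without morc-1 late replicate 1. Quantile normalization called 1 member lower there (0.975% of all genes higher, 0.245% lower). In hrde-1 there were 7 calls without hrde-1 late replicate 1. The interaction test, which asks whether a mutant's difference from WT itself changed from early to late, called no member for morc-1 (0% of all genes in each direction, 7 members higher and 1 lower at an unadjusted p under 0.05, 3.91% and 0.559% beside 6.92% and 2.4% of all genes) and fbxa-33 alone for hrde-1 (0.0217% of all genes higher, 0.0794% lower).

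Other parts of the ubiquitin ligase were examined for context. Of 30 genes of the SCF core, 2 were higher in hrde-1 late, the Skp1-related skr-10 by 2.09 (SE 0.48, limma adjusted p = 0.022) and skr-14 by 1.13 (SE 0.26, limma adjusted p = 0.021), and none was lower. No SCF core gene passed in morc-1 late. None of 7 conserved single F-box genes passed in hrde-1 late, where none reached an unadjusted p under 0.05 either. The MATH and BATH genes, another large nematode family of substrate receptors, which serve cullin 3 ligases in the case of the BATH proteins, had 4 of 66 genes higher in hrde-1 late, a share of 6.06% beside the 7.26% of the F-box members. Of all genes 8.13% were higher and 1.65% lower there, so both shares were below that of all genes.

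Small RNA mapped to F-box genes was lower at many members in the hrde-1 mutant on the deposited scale. Of 90 members with a mean of at least 10 normalized reads, 40 were lower and 4 higher in hrde-1 early than in WT early, and 49 were lower and 15 higher in hrde-1 late. Of all 2349 features 42% were lower and 12.8% higher in hrde-1 early, and 53% were lower and 18.3% higher in hrde-1 late. The members' shares were 44.4% lower and 4.44% higher early, and 54.4% lower and 16.7% higher late, so the late shares and the early share of losses were near the background. Of the 40 lower early, 35 were also lower late, 87.5% of the early and 71.4% of the late list. The overlap over all features was not counted, here or for the other early and late small RNA lists. On the deposited scale the median of all features was itself below 0, at -0.71 early and -1.08 late, beside -1.13 and -1.45 for the members. Quantile normalization moved the medians of all features to 0.21 and 0.11 and split the members into 21 higher and 23 lower early and 31 higher and 31 lower late, so counts of losses and gains on the deposited scale are relative to that shift. By that scaling 33.8% of all features were higher and 21.1% lower early, and 35.8% were higher and 29.1% lower late. DESeq2 on whole reads, recovered by undoing the scaling of each library, split the members into 13 higher and 33 lower early (24.3% and 28.7% of all features) and 26 higher and 41 lower late (34.8% and 37.7%). By edgeR 24 members were higher and 46 lower late, against 30.4% and 43.6% of all features.

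The 3 families differed in where their small RNA stood in hrde-1 late. The fbxc genes had 13 of 15 lower, none higher and a median of -2.40, the fbxa genes had 26 of 49 lower, 8 higher and a median of -1.96, and the fbxb genes had 10 of 26 lower, 7 higher and a median of -0.41. Of all features 53% were lower and 18.3% higher, with a median of -1.08. With quantile normalization the fbxa and fbxc medians stayed below 0, at -0.35 and -0.98, while the fbxb median changed sign to 0.79, as it did with edgeR (0.25) and DESeq2 (0.48) on the recovered reads. In morc-1 late the same order appeared, with 8 of 15 fbxc, 19 of 49 fbxa and 4 of 26 fbxb genes lower, beside 25.4% of all features. With quantile normalization the morc-1 late medians were -0.48 for fbxc, -0.16 for fbxa, 0.42 for fbxb and 0.10 for all features. In hrde-1 early the order differed, with the fbxa median lowest at -1.37, beside -1.20 for fbxc and -0.67 for fbxb. The fbxa median was also lowest there with quantile normalization, edgeR and DESeq2. In morc-1 early the medians were -0.50 for fbxc, -0.45 for fbxa and -0.31 for fbxb. The difference between families was not tested.

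**Figure D2:**
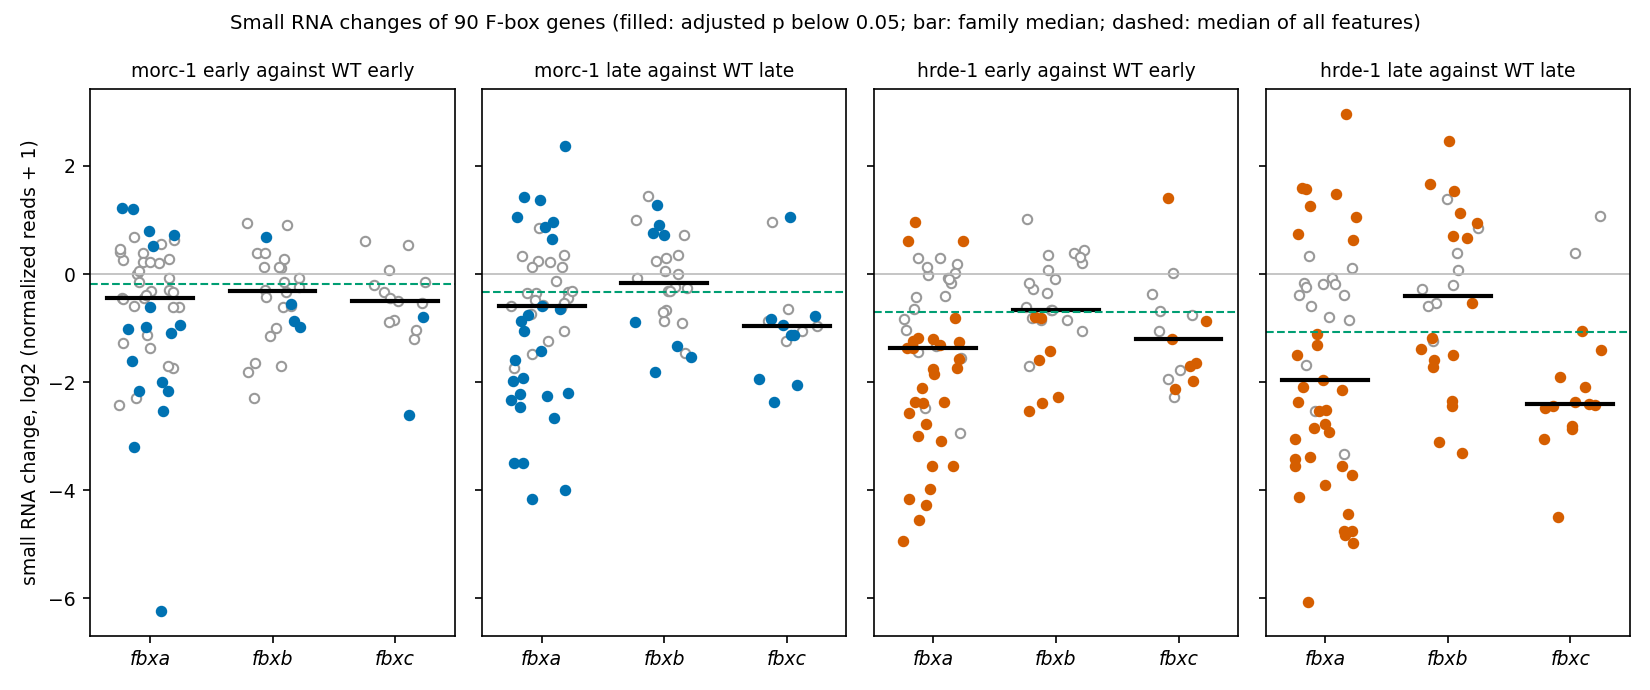
Small RNA change of 90 F-box genes against WT of the same stage, on the log2(normalized reads + 1) scale, by family in 4 comparisons, with filled points for an adjusted p under 0.05, a bar for the family median and a dashed line for the median of all features. In hrde-1 late the fbxc median (-2.40) and the fbxa median (-1.96) lie below the dashed line (-1.08) and the fbxb median (-0.41) above it; the fbxb median is above 0 with quantile normalization, edgeR and DESeq2.

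The deepest small RNA losses were in fbxa genes. The value of fbxa-166, which lies between fbxa-165 and fbxa-158 on chromosome II, was 613, 474 and 435 normalized reads in WT early, 43.3, 60.3 and 58.9 in morc-1 early and 27.6 and 22.5 in hrde-1 early. Late values were 665, 603 and 371 in WT, 41.1, 26.2 and 31.2 in morc-1 and 6.73 and 7.06 in hrde-1. Both mutants lay below WT at both stages with no overlap, and the change in hrde-1 late was -6.07 (SE 0.28, limma adjusted p = 8.4e-10). Of all features, 61.7% early and 62.9% late lay below WT without overlap in hrde-1, and 19.8% and 35.3% in morc-1. The second deepest late loss in hrde-1 was that of fbxa-216 at -4.98. The pseudogene fbxa-117 followed the same order as fbxa-166, with 537, 515 and 468 normalized reads in the WT late libraries. Values were 108, 84.4 and 107.2 in the late morc-1 and 16 and 17.6 in the late hrde-1 libraries, a change of -4.83 in hrde-1 late and -2.34 in morc-1 late. Next in hrde-1 late were the identical pair fbxa-204 and fbxa-205 at -4.76, fbxc-39 at -4.49, fbxa-192 at -4.45, fbxa-118 at -4.12, fbxa-93 at -3.90 and fbxa-97 at -3.72, the last of which was lost in 4 of the 6 fits with a library left out. In hrde-1 early the largest losses were fbxa-184 at -4.94, fbxa-216 at -4.55, fbxa-166 at -4.28 and fbxa-115 at -4.16, and fbxa-93, fbxa-204, fbxa-205, fbxa-117, fbxa-192 and fbxa-111 lay between -3.99 and -2.77.

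The morc-1 mutant lost small RNA at part of these genes. In morc-1 early 17 members were lower and 6 higher, against 11.5% of all features lower and 4.3% higher. In morc-1 late 31 were lower and 12 higher, against 25.4% lower and 19.8% higher, with 13 members lower at both stages, 76.5% of the early and 41.9% of the late list. The largest late losses were fbxa-184 at -4.16, fbxa-166 at -4.0, the identical fbxa-204 and fbxa-205 at -3.50 and fbxa-150 at -2.67, and fbxa-216, fbxc-40, fbxa-117, fbxa-118 and fbxa-115 lay between -2.45 and -2.22. In morc-1 early fbxa-166 fell by 3.20, fbxa-117 by 1.99 and fbxa-118 by 1.60 on the log2 scale. For fbxa-184 the 3 morc-1 early libraries held 0, 0 and 9 reads, against 143, 110 and 154 normalized reads in WT early. The list of 23 depends on WT libraries: it had 14, 13 and 14 members without WT early replicate 1, 2 and 3, and 19 without the shallow morc-1 early replicate 1. With quantile normalization 17 members were higher and 13 lower early, and 23 were higher and 22 lower late. By that scaling 18.9% of all features were higher and 11.2% lower early, and 25.5% were higher and 18.8% lower late. DESeq2 gave 13 members higher and 13 lower early (12.1% and 11% of all features) and 21 higher and 29 lower late (27.5% and 23%).

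Some members gained small RNA in morc-1. In morc-1 late the largest gain was that of fbxa-109, from 29.8, 37.6 and 18.5 normalized reads in WT late to 161, 134 and 143, without overlap (2.36, SE 0.28, limma adjusted p = 2.3e-05). It was followed by fbxa-139 at 1.42, fbxa-16 at 1.37, fbxb-14 at 1.28, fbxa-192 at 1.05, fbxc-8 at 1.05 and fbxa-149 at 0.96, and fbxb-101, fbxa-168 and fbxb-4 lay between 0.91 and 0.76. In morc-1 early fbxa-191 (1.23), fbxa-109 (1.2), fbxa-192 (0.80), fbxa-193 (0.73), fbxb-14 (0.68) and fbxa-67 (0.51) were higher. Of these, fbxa-191, fbxa-193 and fbxa-67 were lost in some fits with a library left out, and the late calls of fbxb-101 and fbxa-168 held in 3 of 7 such fits. Of all features, 16.2% early and 21.2% late lay above WT without overlap in morc-1.

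At fbxb-14, fbxa-192 and fbxc-8 small RNA was higher in morc-1 late and lower in hrde-1 late. Other abundant targets did not share this, since fbxa-218 (-0.65 in morc-1 late, -1.10 in hrde-1 late) and fbxc-43 (-0.77 and -2.08) were lower in both late mutants and fbxa-149 was higher in both. For fbxb-14 the values were 3844, 4151 and 3347 normalized reads in WT early, 5285, 6883 and 6027 in morc-1 early and 1253 and 1236 in hrde-1 early. Late values were 3340, 3276 and 2907 in WT, 7136, 8435 and 7499 in morc-1 and 589 and 581 in hrde-1, so that no groups overlapped. The late changes were 1.28 in morc-1 (SE 0.12, limma adjusted p = 4.6e-06) and -2.44 in hrde-1 (SE 0.14, limma adjusted p = 5.4e-09). For fbxa-192 late values were 2140, 3358 and 2563 in WT, 4706, 5494 and 6386 in morc-1 and 110 and 131 in hrde-1, with changes of 1.05 and -4.45. For fbxc-8 they were 135, 175 and 120 in WT, 263, 325 and 299.5 in morc-1 and 25.2 and 28.2 in hrde-1, with changes of 1.05 and -2.36. Compared directly, hrde-1 late differed from morc-1 late by -5.50 for fbxa-192, -4.04 for fbxa-93, -3.71 for fbxb-14 and -3.42 for fbxc-8.

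In that direct comparison of late mutants 32 members were lower and 9 higher in hrde-1, against 40% of all features lower and 15.8% higher. The highest were fbxa-150 at 3.01, fbxa-149 at 2.0, and fbxc-52 and fbxa-24 at 1.23. With quantile normalization the split was 18 higher and 14 lower (24.4% and 18.1% of all features). It was 18 and 22 with edgeR (29.2% and 27%) and 19 and 20 with DESeq2 (29.6% and 24.7%).

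The gene fbxa-150 lost small RNA over generations in morc-1 and gained it in hrde-1. It had 568, 628 and 465 normalized reads in WT early, 390, 244 and 206 in morc-1 early and 132 and 123 in hrde-1 early, all without overlap. In late libraries it had 381, 409 and 370 in WT, 59.4, 51.3 and 70.3 in morc-1 and 525 and 457 in hrde-1. The difference from WT thus went from -1.02 to -2.67 in morc-1 (interaction -1.65, SE 0.30, limma adjusted p = 0.020) and from -2.10 to 0.34 in hrde-1 (interaction 2.44, SE 0.34, limma adjusted p = 0.00058), where the late value did not pass (limma adjusted p = 0.22). With a library left out, fbxa-150 kept the morc-1 interaction call in 7 of 12 fits. Its late mRNA, at 8.97 and 1.73 FPKM in WT, 5.37 and 2.80 in morc-1 and 7.88 and 2.05 in hrde-1, overlapped in all strains.

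**Figure D3:**
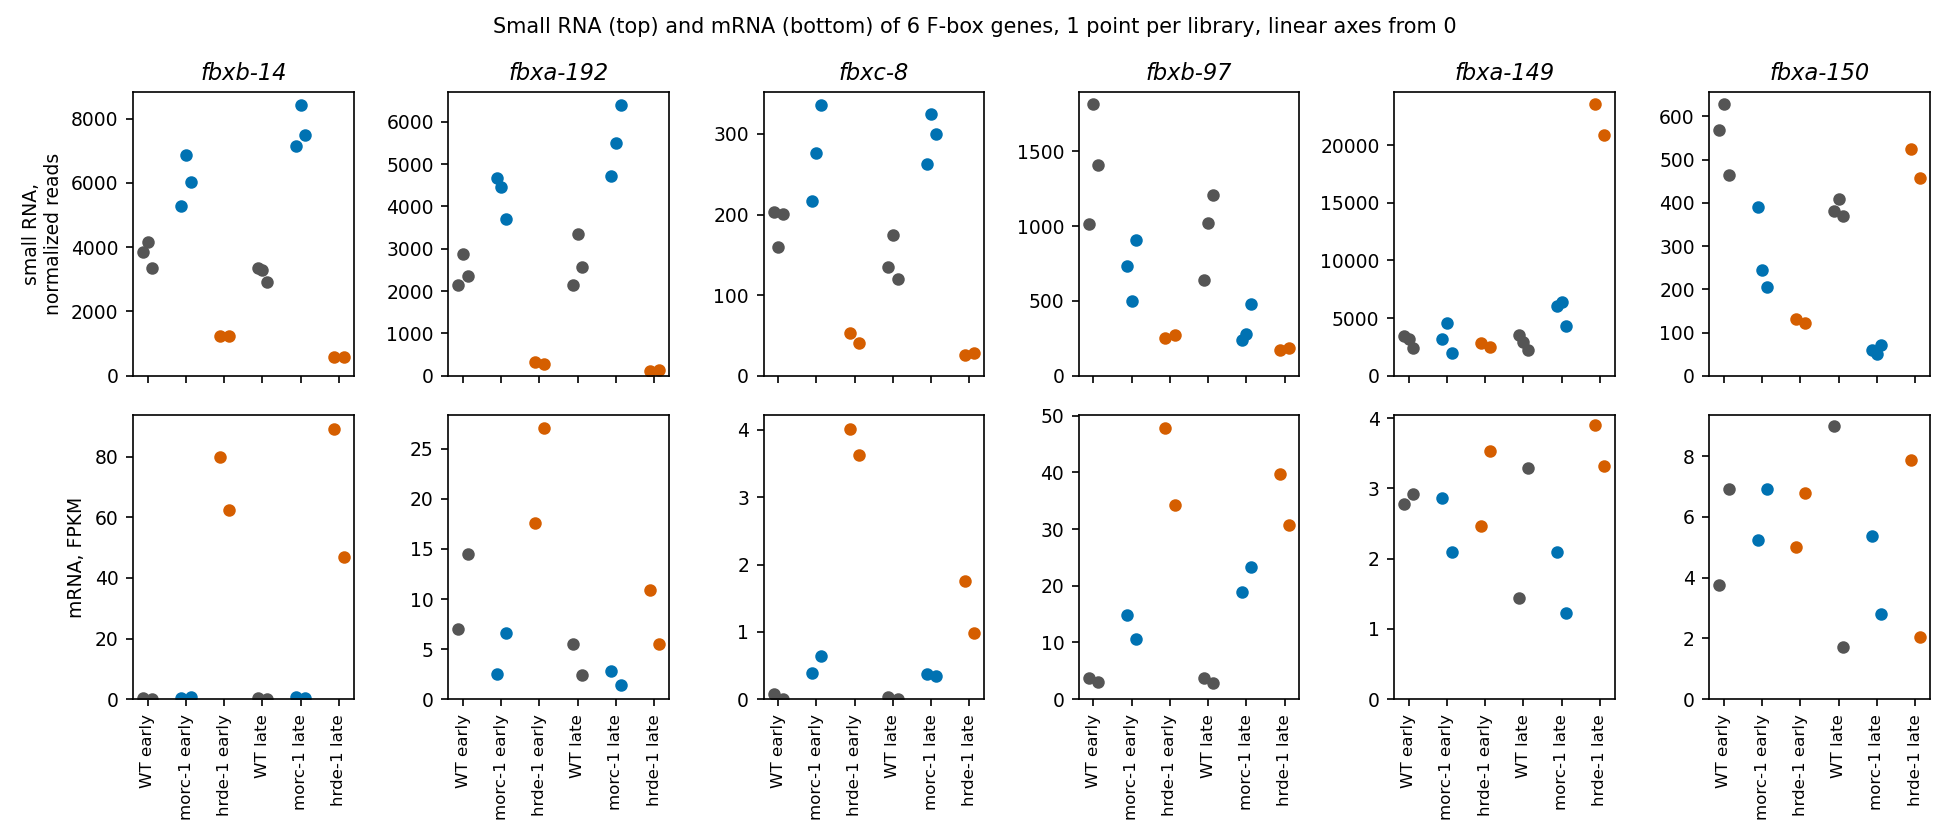
Small RNA in normalized reads (top) and mRNA in FPKM (bottom) of 6 F-box genes in every library, grey for WT, blue for morc-1 and orange for hrde-1, on linear axes from 0. Small RNA of fbxb-14, fbxa-192 and fbxc-8 lies above WT in morc-1 and below it in hrde-1, that of fbxb-97 below WT in both, that of fbxa-149 far above the others in hrde-1 late, and that of fbxa-150 lowest in morc-1 late.

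Gains of small RNA in hrde-1 late were led by fbxa-149, which RefSeq calls a pseudogene. Its values were 3457, 3171 and 2370 normalized reads in WT early and 2853 and 2465 in hrde-1 early, which overlapped, then 3493, 2934 and 2233 in WT late and 23527 and 20898 in hrde-1 late. The change was 2.96 in hrde-1 late (SE 0.30, limma adjusted p = 1.2e-06) and -0.16 in hrde-1 early, and the interaction of 3.12 passed (SE 0.42, limma adjusted p = 0.00047). In morc-1 late the gene had 6092, 6404 and 4358 normalized reads, a change of 0.96 (limma adjusted p = 0.011). Its mRNA was at 1.43 and 3.30 FPKM in WT late and 3.90 and 3.32 FPKM in hrde-1 late, a difference of 0.51 that did not pass (limma adjusted p = 0.51).

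This gene changed the total for the families. It gave 61.3 and 59.9% of all F-box small RNA in hrde-1 late, against 8.34 to 10.6% in WT, 6.78 to 17.9% in morc-1 and 15.8 to 17.2% in hrde-1 early. The F-box share of all small RNA reads was 2.54 to 2.88% in morc-1, 1.65 and 1.66% in hrde-1 early and 2.93 and 3.11% in hrde-1 late, beside 2.50 to 2.86% in WT. The sum without fbxa-149 was 24539 to 33636 normalized reads in WT, 13717 and 13177 in hrde-1 early and 14836 and 14012 in hrde-1 late, so both hrde-1 stages lay below every WT library once that gene was set aside.

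**Figure D4:**
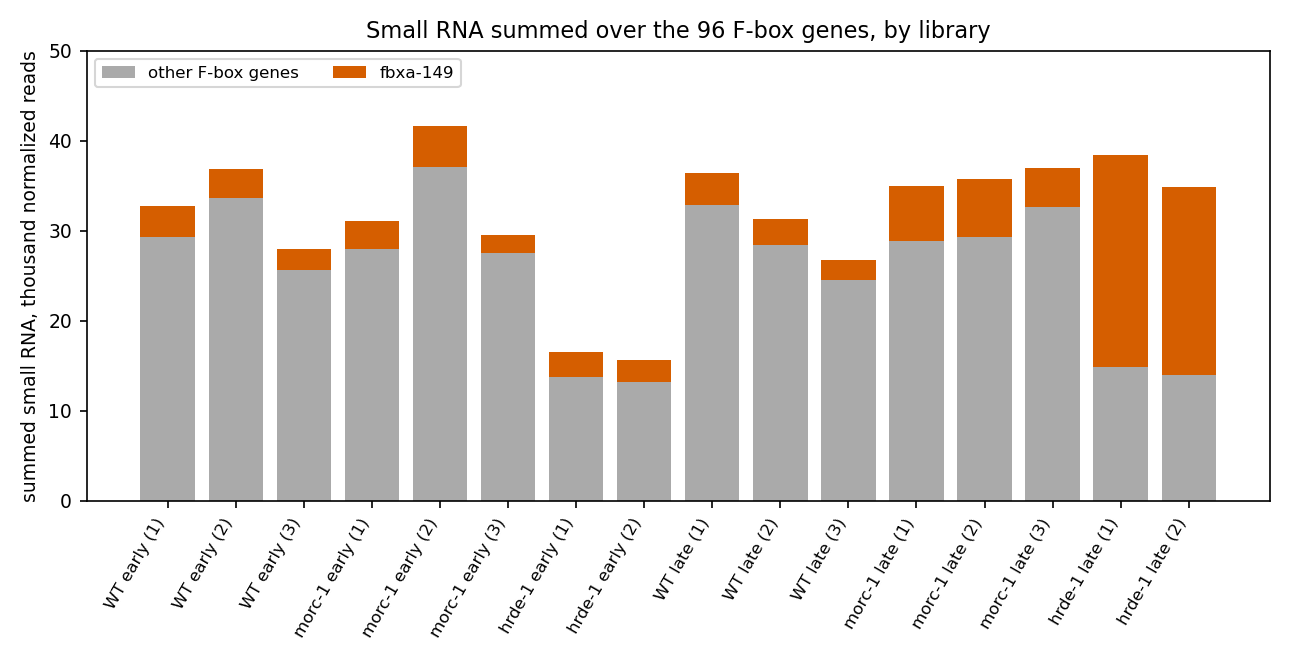
Normalized small RNA reads summed over the 96 F-box genes in each of 16 libraries, with fbxa-149 in orange and the other 95 in grey. The orange part is 61.3 and 59.9% of the bar in the hrde-1 late libraries, and the grey part is lower in all 4 hrde-1 libraries than in any WT library.

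The other gains in hrde-1 late were smaller. In order they were fbxb-94 (2.46), fbxb-101 (1.67), fbxa-24 (1.58), fbxa-55 (1.57), fbxb-26 (1.55), fbxa-10 (1.49), fbxa-67 (1.25), fbxb-24 (1.13) and fbxa-109 (1.06), of which fbxb-94 and fbxb-26 were lost in most fits with a library left out. For fbxa-67, which lies beside fbxa-11 on chromosome III, values were 776, 813 and 720 normalized reads in WT late and 1950 and 1729 in hrde-1 late, without overlap. Of all features, 22.3% lay above WT without overlap in hrde-1 late. In hrde-1 early fbxc-18 (1.4), fbxa-24 (0.97), fbxa-67 (0.61) and fbxa-55 (0.61) were higher, and 3 of these 4 were also higher late, 75% of the early and 20% of the late list. The early calls of fbxc-18 and fbxa-55 held in 2 of 6 fits with a library left out.

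Across generations small RNA at F-box genes gave few calls in WT, with fbxa-11 at -1.19 and fbxb-4 at -0.92 lower late and none higher, against 0.426% of all features lower and 0.0851% higher. Either call was lost without some WT libraries, and no member passed without WT early replicate 1 or 3 or without WT late replicate 1 or 3. In morc-1 15 members were lower and 2 higher in late than early, against 8.68% lower and 1.79% higher, led by fbxa-150 (-2.15), fbxa-115 (-2.14), fbxa-111 (-1.86) and fbxa-216 (-1.81), with fbxa-10 (1.60) and fbxb-56 (0.60) higher. With 1 library left out fbxa-115 and fbxb-56 held in 2 of 6 fits and fbxa-10 in 3 of 6, and fbxa-115 also failed with quantile normalization, edgeR, DESeq2, the replicate block and a pseudocount of 10. That count was 11 without morc-1 early replicate 1 and 10 without morc-1 late replicate 1 or without the first of the unnumbered morc-1 late libraries. The split was 4 higher and 7 lower with quantile normalization (2.64% and 5.19% of all features), 6 and 13 with edgeR (7.32% and 8.26%) and 8 and 13 with DESeq2 (8.9% and 8.3%). In hrde-1 20 were lower and 9 higher, against 19.5% lower and 12.3% higher, with fbxa-117 (-2.07), fbxa-178 (-2.0), fbxc-46 (-1.97) and fbxc-39 (-1.96) lowest and fbxa-149 (3.06), fbxa-150 (1.94), fbxa-10 (1.61) and fbxb-56 (1.27) highest. Of these, fbxa-178 and fbxa-10 held in 1 of 5 fits with a library left out and fbxc-39 in 2 of 5. It was 13 to 15 without any 1 of the 4 hrde-1 libraries, and the split was 8 higher and 10 lower with quantile normalization (9.45% and 11.5% of all features). Most calls were higher with edgeR, 23 against 18 (23.5% and 16.3%), and with DESeq2, 23 against 13 (24.9% and 14.9%).

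The interaction test called 2 members for morc-1, fbxa-150 and fbxa-111 (-1.27), both lower, against 1.15% of all features lower and 0.639% higher. It called 6 members higher and 9 lower for hrde-1, against 10.3% higher and 10% lower. The count for hrde-1 was 5 to 9 in 6 of the 11 fits with a library left out, those without WT early replicate 1, WT late replicate 3 or any hrde-1 library. The count for morc-1 fell to 0 or 1 in several fits with a library left out. Of 12 such fits, the call of fbxa-150 held in 7 and that of fbxa-111 in 4. For hrde-1 the split was 6 higher and 5 lower with quantile normalization (4.38% and 6.22% of all features), 17 and 9 with edgeR (17.2% and 10.4%) and 20 and 8 with DESeq2 (19% and 9.24%). For morc-1 it was 1 and 3 with edgeR (1.75% and 1.87%) and 1 and 6 with DESeq2 (3.24% and 2.38%).

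The last question was whether mRNA and small RNA changes met in the same genes. Both assays tested 60 members. In hrde-1 late the mRNA was higher in 5 of the 38 genes whose small RNA was lower, in 1 of the 9 whose small RNA was higher, in 3 of the 13 whose small RNA did not pass and in 4 of the 119 without tested small RNA. The 5 with lower small RNA were fbxb-14, fbxb-97, fbxb-7, fbxa-194 and fbxc-8, and the gene with higher small RNA was fbxb-56; the mRNA calls of fbxb-7 and fbxb-56 did not hold in most fits with a library left out, as given above. The median mRNA change was 0.14 where small RNA was lower, 0.49 where it was higher, 0.36 where it did not pass and 0.06 where none was tested, which are differences below 0.5 on the log2 scale. In hrde-1 early the mRNA was higher in 3 of 32 genes with lower small RNA, in none of 4 with higher, in 2 of 24 not passing and in 1 of 119 untested. Of the genes counted late, fbxb-14, fbxa-194, fbxc-8 and the 4 without tested small RNA averaged under 0.5 FPKM outside hrde-1. Early this was so for fbxb-14, fbxc-8 and the untested fbxa-224. They were tested only because they are high in hrde-1, so these counts cannot show that mRNA rose where small RNA fell. Of all genes 8.13% were higher late and 0.787% early.

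In morc-1 late the mRNA was higher in 1 of 24 genes with lower small RNA, and that gene was fbxb-97. Its late small RNA was 638, 1019 and 1206 normalized reads in WT, 240, 282 and 476 in morc-1 and 173 and 189 in hrde-1, in the reverse order of its mRNA, with changes of -1.53 in morc-1 (SE 0.31, limma adjusted p = 0.0016) and -2.34 in hrde-1 (SE 0.35, limma adjusted p = 3.9e-05). The gene fbxb-7 had 103.7, 216 and 190 normalized reads in WT late and 15.1 and 15.9 in hrde-1 late, a change of -3.31. Most of the 38 genes with lower small RNA in hrde-1 late had no passing mRNA change. For fbxa-166 mRNA was at 1.06 and 2.35 FPKM in WT late and 1.63 and 0.573 in hrde-1 late, and for fbxa-93 at 419 and 260.5 FPKM against 254 and 407. For fbxa-192 it was at 5.55 and 2.41 FPKM in WT late and 10.9 and 5.47 in hrde-1 late, a difference of 0.89 that did not pass (limma adjusted p = 0.45).

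**Figure D5:**
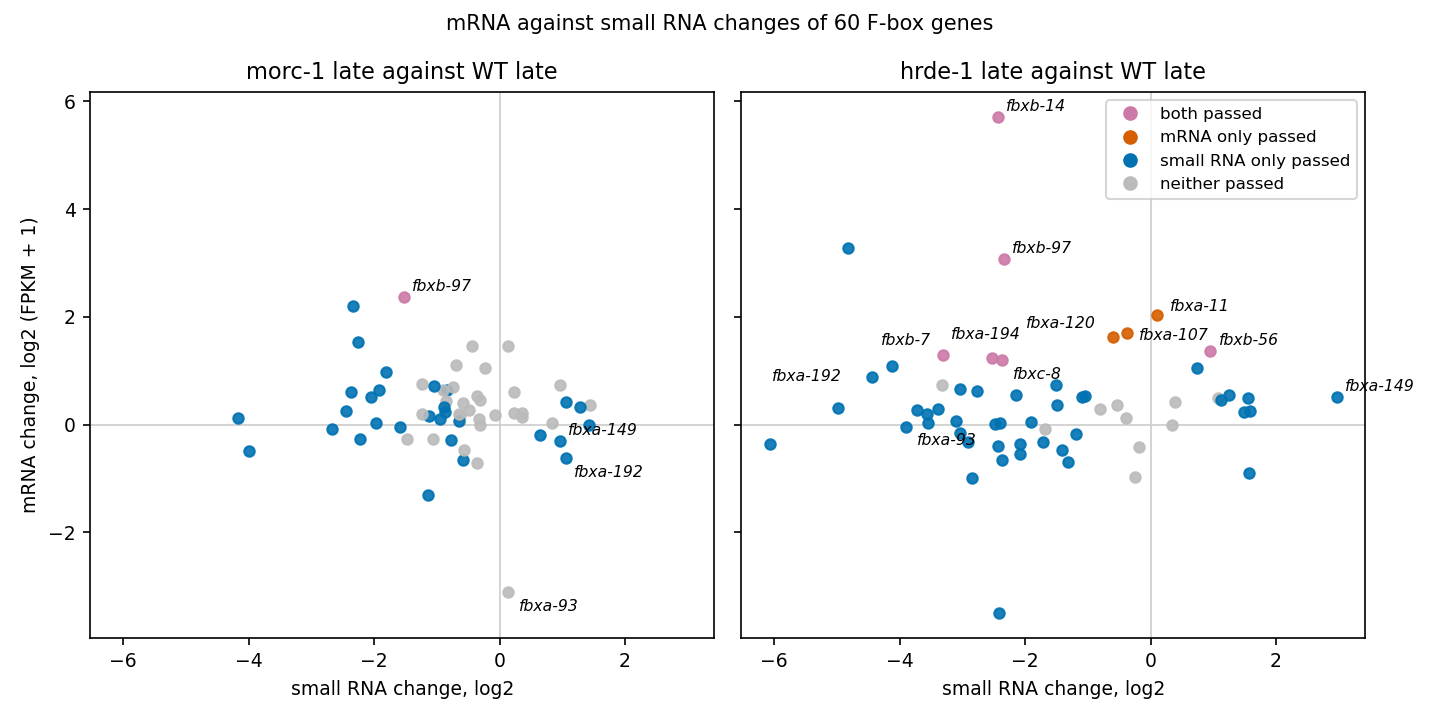
mRNA change, log2(FPKM + 1), against small RNA change, log2(normalized reads + 1), of the 60 F-box genes tested in both assays, in the 2 late mutants against WT late, coloured by which test passed. In hrde-1 late fbxb-14 and fbxb-97 stand at the upper left among genes spread along 0 on the mRNA axis.

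Across these 60 genes Spearman's rho between the changes was -0.117 in morc-1 early, -0.099 in morc-1 late, 0.042 in hrde-1 early and 0.013 in hrde-1 late. The genes are not independent, since neighbours and paralogs are among them, and all points share the same libraries, so rho is a description of these libraries.

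Among genes of the pathway and comparison families with small RNA, skr-21, a Skp1-related gene, was lower in late libraries of both mutants (-1.42 in morc-1 and -2.87 in hrde-1), and skr-10 was lower in hrde-1 late (-1.71). These were the only SCF core genes with a tested small RNA feature. Of 32 MATH and BATH genes 24 were lower and 3 higher in hrde-1 late, a share of 75% lower beside 54.4% for the F-box members, and their median was -2.10. Of all features 53% were lower and 18.3% higher, with a median of -1.08. The difference between the families was not tested.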

How the data were processed

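Deposited tables were used, and no reads were realigned. mRNA values deposited by the authors were read as FPKM, since they are not whole and their lowest nonzero values fall with gene length. Small RNA values deposited by the authors are a size-factor normalized signal, in which 1 factor per library divides the read count of each feature. Per the submitters' processing notes the tools were DESeq2 and, with versions, Trimmomatic 0.35, TopHat2 (version not stated) and Bowtie 0.12.7. Genome build, annotation and the treatment of reads shared by copies: not given in the sources used here. Chromatin data were not analysed here.

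Each assay was fitted once with limma 3.58.1 (R 4.3.3; group means, trended moderated variance) on log2(value + 1), over the 13850 genes whose mean reached 0.5 FPKM and 2349 of 2434 small RNA features whose mean reached 10 normalized reads, with Benjamini-Hochberg adjusted p under 0.05 over all of them. Of 179 mRNA members all were tested, and of 96 small RNA members 90. For the count tests whole reads were recovered from the small RNA values, 100% within 0.02 reads in each library. On them edgeR 4.0.16 called 714 features higher and 1023 lower in hrde-1 late, of which 24 and 46 were F-box members, and DESeq2 1.42.0 was a further alternative. The fits were also run on simulated data with known changes, whose outcome is not given here. mRNA depth is unknown. The headers of 2 morc-1 late small RNA columns were identical, so these libraries carry no number.

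Replicate numbers were checked by correlating deviations from group means. Small RNA morc-1 early and WT early gave 0.237, 0.458 and 0.356 for replicates 1, 2 and 3. Same-numbered libraries of both groups thus varied together. Across stages the numbers did not agree, with -0.456 for replicate 2 and 0.560 for replicate 3 of WT early and WT late. The fits used for the results left this pairing out. With a replicate block over all strains and stages 23 members passed in morc-1 early (8 higher, 15 lower), of which 19 were among the 23 without it. That block assumes the same replicate effect at both stages, which the WT correlations did not show. A block within a stage was not run for small RNA, so how the pairing would change the calls is not known.

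Named were up to 10 passing members per direction in mutant against WT comparisons, up to 4 in the others, and the 5 highest in WT. Others were added beside them for their position or for the second assay, after their values were seen. Members and lists were chosen with earlier results of these data known. RefSeq's table (WBcel235) gave names, chromosomes, neighbours and gene types.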

Additional observations from a re-analysis of the deposited data

Results flagged for a closer look

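For 15 members in hrde-1 and 2 in morc-1 in small RNA, and for 1 in hrde-1 in mRNA, the difference between a mutant and WT itself differed between early and late libraries, by limma's interaction test with adjusted p over all features. In mRNA this was fbxa-33 in hrde-1, at 7.03 on the log2(FPKM + 1) scale, which is its level in hrde-1 late and no fold, since it was listed at 0 in every other library. Of the 15 in small RNA of hrde-1, the 4 largest in each direction follow. The interaction was 3.12 for fbxa-149, 2.44 for fbxa-150, 1.50 for fbxa-109 and 1.30 for fbxb-56, which were relatively higher late. It was -2.38 for fbxa-178, -2.37 for fbxc-39, -2.04 for fbxc-46 and -1.80 for fbxa-166, which were relatively lower late. In small RNA of morc-1 it was -1.65 for fbxa-150 and -1.27 for fbxa-111. The calls of fbxa-149 passed in all 11 fits with a library left out, those of fbxb-56 and fbxa-166 in 10 of 11, and those of fbxa-109 and fbxc-39 in 3 of 11.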

How the results depend on the processing

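No named change turned its sign in any alternative, and 14 of 23 named mRNA changes and all but 32 of the named small RNA changes passed in every fit with a library left out. When the fit held the compared groups alone, with fewer residual degrees of freedom, mRNA calls fell from 6 to 1 in hrde-1 early, 13 to 4 (2 shared) in hrde-1 late, 1 to 0 in morc-1 late and 5 to 2 in hrde-1 late against morc-1 late, and were 3 rather than 1 in hrde-1 late against early. Other mRNA counts that moved, whose cause was not tested, were as follows. Testing genes of at least 10 FPKM, which tests fewer members, gave 3 in hrde-1 early, 4 in hrde-1 late, 2 in hrde-1 late against morc-1 late and 0 in the hrde-1 interaction. No filter gave 5 in hrde-1 late against early and 9 in hrde-1 late against morc-1 late, and a pseudocount of 0.1 gave 3 there. Quantile normalization gave 5 in WT late against early, 1 in morc-1 late against early, 4 in hrde-1 late against early and 8 in hrde-1 late against morc-1 late. In small RNA it gave 11 in morc-1 late against early and 18 in hrde-1 late against early, edgeR gave 4 and DESeq2 7 in the morc-1 interaction, and edgeR gave 26 and DESeq2 28 in the hrde-1 interaction. mRNA replicate numbers agreed within a generation (correlations from 0.308 to 0.439) but not across (-0.217 to 0.012), with 2 pairs per comparison, too few to take the numbers as pairing. With the replicate block the mRNA counts were 0 in morc-1 early, 1 in morc-1 late, 6 in hrde-1 early and 13 (12 higher, 1 lower) in hrde-1 late. The replicate block defined by generation, an alternative chosen after seeing the data, gave 3 in morc-1 late and 9 in hrde-1 late against morc-1 late. In hrde-1 late it gave 23 (20 higher, 3 lower, 13 shared), beside 12.6% and 3.81% of all genes. For late against early this block compares the fitted levels of replicate 1 at each stage, not the group means. Its 12 calls in WT (11 higher, 1 lower, beside 6.66% and 4.38% of all genes) and 2 in hrde-1 are therefore not comparable with the other counts. In small RNA the replicate block, which drops the 2 unnumbered morc-1 late libraries, gave 24 rather than 43 in morc-1 late, 1 rather than 2 in WT late against early, 6 rather than 17 in morc-1 late against early and 1 rather than 2 in the morc-1 interaction, and changed no other count by over 1.5 times. With a library left out the mRNA counts were 0 to 0 in morc-1 early, 0 to 1 in morc-1 late, 3 to 4 in hrde-1 early, 9 to 18 in hrde-1 late, 0 to 5, 0 to 1 and 1 to 7 in WT, morc-1 and hrde-1 late against early, 3 to 4 in hrde-1 late against morc-1 late, and 0 to 0 and 1 to 1 in the morc-1 and hrde-1 interactions. The small RNA counts in the same order were 13 to 26, 34 to 54, 34 to 51, 50 to 71, 0 to 3, 10 to 24, 13 to 36, 29 to 47, 0 to 3 and 5 to 17. A lone remaining library was assumed to vary like the other groups. The mRNA depth is unknown, and in morc-1 early replicate 1 a count of 0 allows up to 64.98 normalized reads (3 reads), for counting error only.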
